A study of Bos taurus with 6 samples.

Results

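The 60 genes described here were annotated to calcium ion binding in a deposited table of 2040 genes. Its samples were labelled longissimus dorsi, a back muscle cut as the loin, from Angus and Chinese Simmental cattle. The term was held by 90 listed genes. From these, 8 solute carrier, provisional or assembled names were left out, as were 12 genes that also carried a receptor, kinase, GTPase activator or exchange factor term, 2 genes without a read in one breed, and S100A8, S100A9, S100A12, ADAM8, CAPN2, CAPN3, DYSF and VCAN, which had been set aside by name. The count condition left out DNER, with 775 reads in Angus and 0 in Chinese Simmental, and EDIL3, with 0 and 50 reads, whereas CAPNS2 was kept with 2 reads in Angus and 87 in Chinese Simmental. Each breed had 3 libraries, both from cattle aged 18 months and from muscle at ribs 12 and 13, and no treatment was named. It is not stated whether libraries of a breed came from different cattle, so the tests speak for the spread between these samples, which may be technical. Read counts over the listed genes ranged from 12010803 to 28883725 per library, of which 142966 to 912079 fell on the 60 genes, and library depth is otherwise unknown.

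Calcium binding proteins turn a rise in free calcium into a change of shape, of membrane contact or of adhesion. EF-hand proteins hold the ion in a helix-loop-helix and include both sensors and cytoskeletal cross-linkers, while C2 domains and annexin repeats use it to dock on phospholipid membranes. EGF-like modules and cadherin repeats outside the cell take up calcium as a structural ion. In muscle fibres calcium starts contraction, and in leukocytes it drives migration, granule release and lipid mediator synthesis.

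Of the 60 genes, 54 were higher in Chinese Simmental and 6 in Angus. Values are scaled counts, which are deposited read counts divided by the authors' size factors, given for replicates 1 to 3 in that order and for Angus before Chinese Simmental. A negative log2 fold change, given ± its standard error, means a lower level in Angus. All 60 passed the filter on low counts and were past an adjusted p of 0.05 in the quasi-likelihood test of edgeR with Benjamini-Hochberg adjustment over the whole table (adjusted p from 0.00248 to 0.0391). The authors had listed only genes with a difference between these libraries, with absolute log2 fold changes of at least 1.00 and adjusted p up to 0.0492 in the authors' deposited table, and 99.9% of tested listed genes were past the same threshold. Of the tested listed genes, 24.9% were called in favour of Angus and 75.0% in favour of Chinese Simmental, beside 6 and 54 of the 60 genes. The breeds did not overlap for 55 of the 60 genes, beside 90.3% of listed genes. The presence of a difference was therefore fixed by the listing, and what follows describes its direction, its size and the values of each library. The median log2 fold change was -1.51 over the 60 genes and -1.57 over all tested genes. It was -1.58 against -1.94 among those higher in Chinese Simmental, and 1.82 against 1.60 among those higher in Angus.

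**Figure D1:**
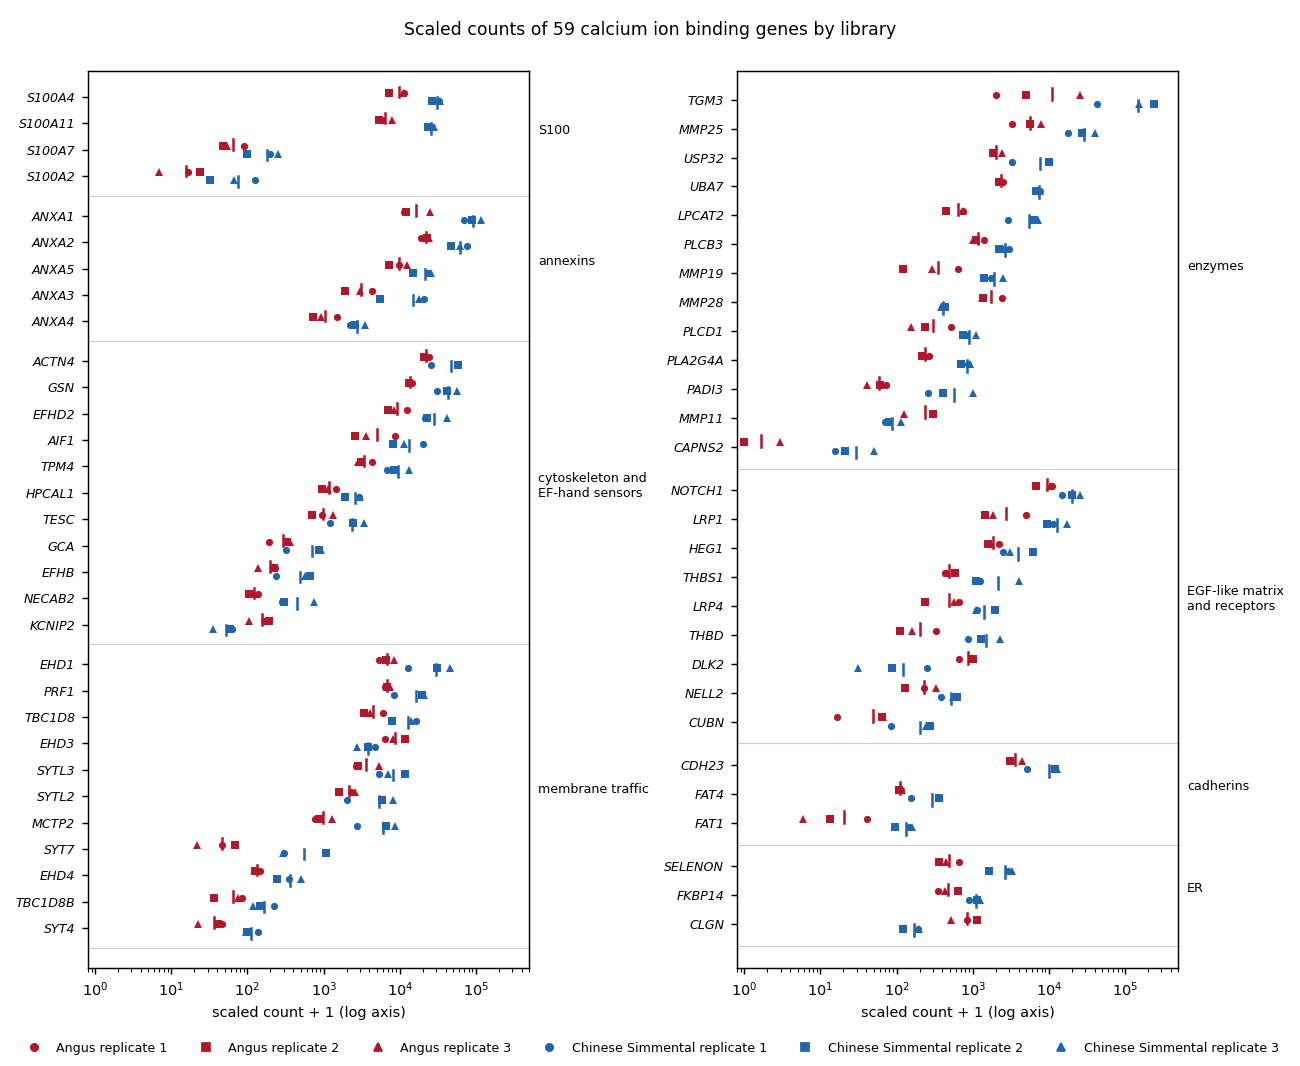
Scaled counts of 59 of the 60 genes by library on a log axis (1 was added to each value), grouped by role and ordered by mean scaled count; symbols mark replicates and short vertical bars the mean of each breed. The red Angus points lie to the left of the blue Chinese Simmental points for 53 genes by their means, and the breeds overlap for SYTL2, SYTL3, AIF1, GCA and TESC; with factors computed over the listed genes 15 of the 53 change direction.

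The direction of the smaller differences depended on the scaling. Listed genes are mostly higher in Chinese Simmental, and factors computed over them centre them by construction. A turn of direction below thus follows from a shift of the whole table and a small difference, and is no separate test of the gene. With TMM or RLE factors computed over the listed genes, the log2 fold changes of the whole table rose by a median of 1.36 and 1.35, in favour of Angus, and 16 of the 54 genes higher in Chinese Simmental changed direction with both. Among them were ANXA5, ACTN4, EFHB, GCA, HPCAL1, TESC, PRF1, SYTL2, SYTL3, PLCB3, HEG1, NELL2, NOTCH1, FAT4 and FKBP14. Under either scaling, 6 genes were called in favour of Angus and 7 in favour of Chinese Simmental, the latter being THBD, ANXA1, CAPNS2, LPCAT2, PADI3, MCTP2 and SYT7. Of the listed genes tested, 503 (25.3%) were then called in favour of Angus with either scaling, and 256 (12.9%, TMM) or 263 (13.2%, RLE) in favour of Chinese Simmental. Directions below hold for the authors' size factors, and a gene that turned is named again beside its group.

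**Figure D2:**
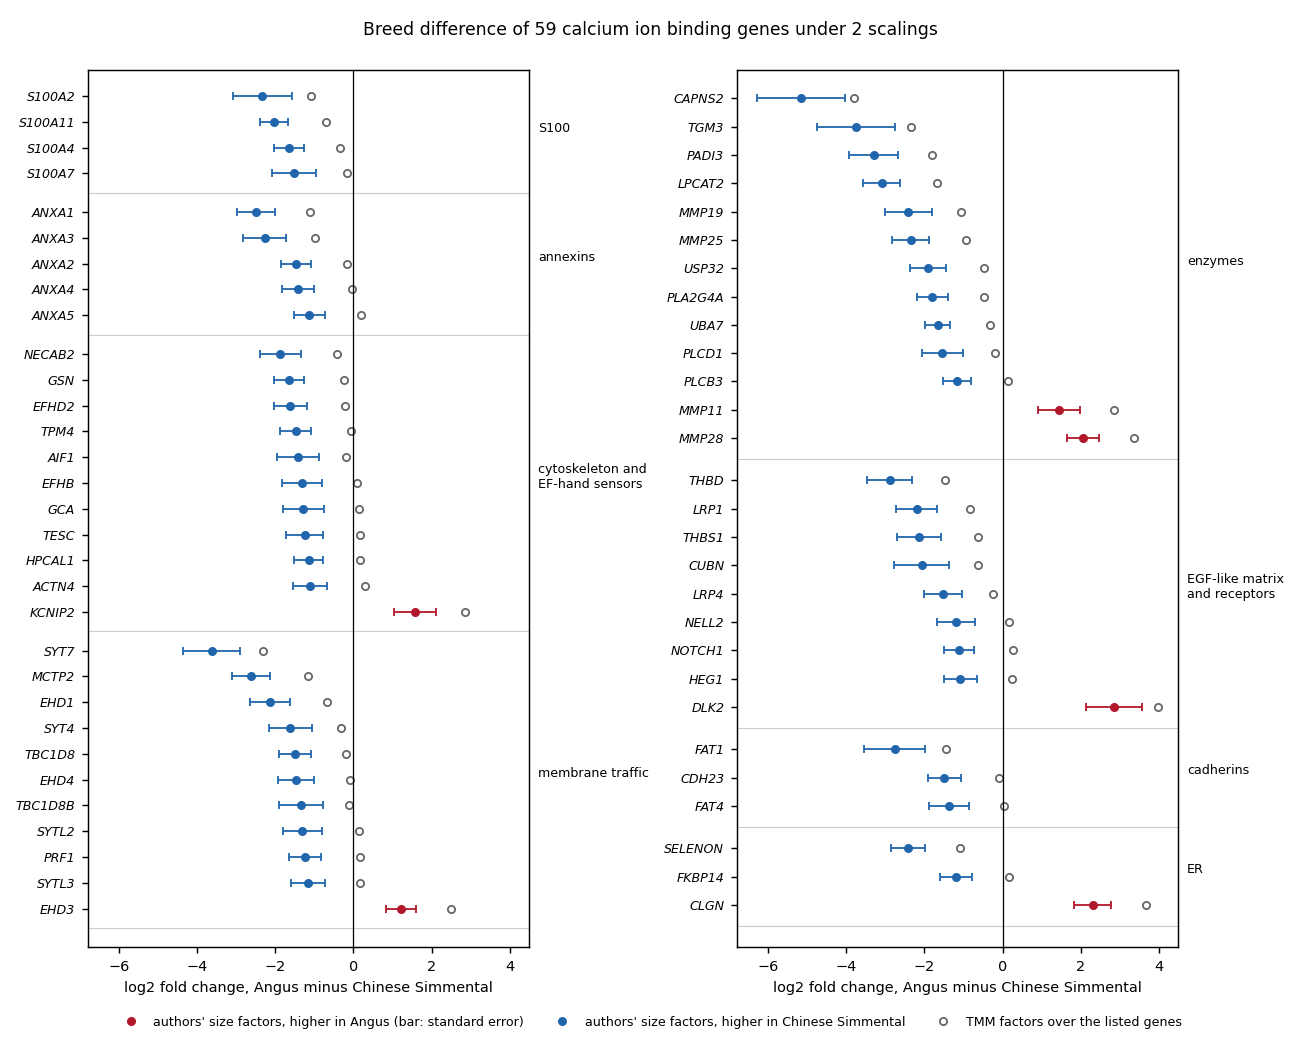
Log2 fold changes of 59 of the 60 genes, Angus minus Chinese Simmental; filled points use the authors' size factors with bars of 1 standard error, and open points use TMM factors computed over the listed genes. The filled points of 53 genes lie below 0, and the open points of 15 of these lie above 0.

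Transcripts typical of leukocytes accompanied this split. Of 18 myeloid markers 14 were listed, 1 of them (AIF1) among the 60 genes, and all 14 were called higher in Chinese Simmental, although FCGR3A turned with TMM factors. Their summed scaled counts ranged from 86954 to 144486 in Angus and from 847657 to 1570728 in Chinese Simmental libraries, and none was at 0 in any library. Of 12 B cell markers 11 were listed and called higher in Angus, with sums of 211341 to 287585 against 54911 to 83746. The 60 genes themselves summed to 178541 to 240177 scaled counts in Angus and 543780 to 885563 in Chinese Simmental. Only 3 of 25 sarcomere markers were listed, with sums of 2238 to 3660 and 1958 to 4096. TNNT3 and NEB were called higher in Angus, and TPM1 was called higher in Chinese Simmental but turned with TMM or RLE. TNNT3 stood at 481, 1515 and 819 against 358, 122 and 105. NEB stood at 1997, 791 and 642 against 413, 243 and 288, and TPM1 at 1182, 994 and 777 against 2275, 1593 and 3703. Most genes that define the labelled tissue were not listed, and whether these values match that tissue was not tested. Of 14 adipocyte markers 4 were listed (LIPE, DGAT2, CFD and CEBPA) and called higher in Chinese Simmental. Their sums were 21366 to 47296 in Angus and 142012 to 264156 in Chinese Simmental. CFD was the largest part in every library, at 16100 to 45009 and 88766 to 184584. ADIPOQ, LEP, PLIN1 and FABP4 were among the markers not listed. The 1 listed of 10 endothelial markers (VWF) and the 1 of 10 platelet markers (GP9) were called higher in Chinese Simmental. Both overlapped between breeds, with Chinese Simmental replicate 1 within the Angus range. VWF stood at 1937, 1692 and 1497 against 1906, 10260 and 6722, and GP9 at 1779, 1206 and 703 against 1067, 6393 and 3761. Of 10 fibroblast markers, PDGFRA was called higher in Angus and THY1 in Chinese Simmental. Of 8 lymphoid tissue markers 3 were listed, of which 2 were called higher in Angus (CR2 and CCR7) and 1 in Chinese Simmental. CR2 is also among the B cell markers above. CCR7 overlapped between breeds, with Angus replicate 1 (10370) below Chinese Simmental replicate 1 (13553). None of 12 T cell or 8 erythroid markers was listed. The part of these cell types in the values below was not tested, and in bulk tissue fewer cells of a type and less RNA per cell cannot be told apart.

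**Figure D3:**
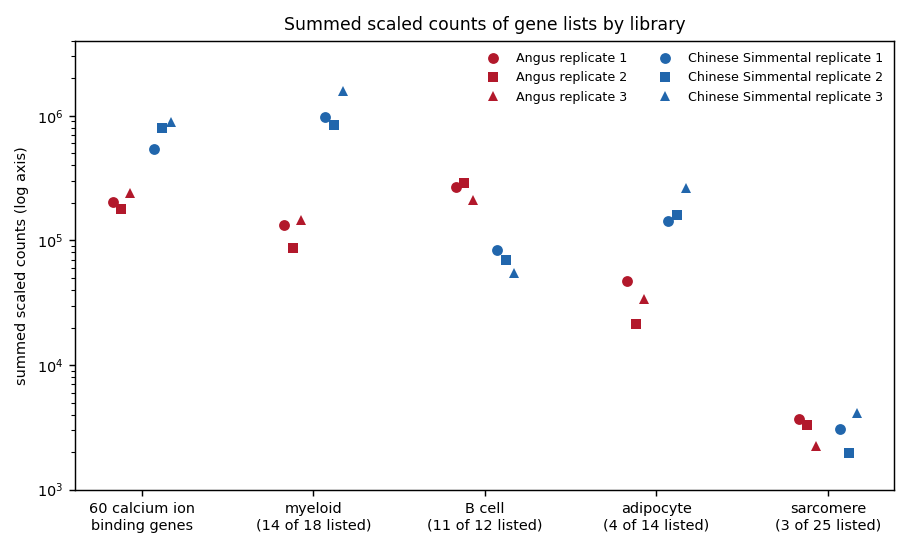
Summed scaled counts per library on a log axis for the 60 genes and for 4 marker lists, with the number of listed markers under each name. The 3 Chinese Simmental libraries lie above the 3 Angus libraries for the 60 genes, the myeloid and the adipocyte lists and below them for the B cell list, and the sarcomere sums overlap.

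The 4 S100 genes, small EF-hand dimers that act by binding other proteins, were all higher in Chinese Simmental. Neither list scaling turned any of them, but none was called with either (-0.17 for S100A7 to -1.08 for S100A2 with TMM). S100A11, a partner of annexin A1, stood at 5866, 5333 and 7833 scaled counts in Angus and 26128, 23586 and 27719 in Chinese Simmental. The Chinese Simmental libraries were close together (coefficient of variation 8.08%), every one more than 3 times the highest Angus library, and the log2 fold change was -2.02 ± 0.36. S100A4, which binds nonmuscle myosin and is made by fibroblasts and leukocytes, stood at 11374, 7138 and 11105 in Angus and 32377, 26722 and 34025 in Chinese Simmental, 3.14-fold higher there. S100A7, known as psoriasin in human skin, had 89.9, 47.5 and 52.2 against 199, 98.1 and 249 scaled counts, and its breeds nearly touched. S100A2 stood at 15.4, 22.5 and 5.91 against 125, 31.2 and 65.1, with Chinese Simmental replicate 1 far above replicate 2. Here and below, a call was lost where the adjusted p passed 0.05 on leaving out 1 library, with the remaining log2 fold change in parentheses. This held for S100A7 without Angus replicate 2 or 3 or Chinese Simmental replicate 1 or 3 (-1.45 to -1.23) and for S100A2 without Angus replicate 3 or Chinese Simmental replicate 1 (-1.96 to -1.72). Where leaving out 1 library moved the fold itself by over 1.5 times, the log2 values are given, here for S100A2 from -2.34 to -1.72 without Chinese Simmental replicate 1.

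All 5 listed annexins, which bind phospholipid membranes when calcium is present, were higher in Chinese Simmental, and ANXA5 turned with factors over the listed genes (0.20 with TMM). ANXA1, a glucocorticoid-induced protein that restrains leukocyte migration, differed the most, at 11319, 12169.9 and 25077 scaled counts in Angus against 70551, 87455 and 115959.8 in Chinese Simmental. Its log2 fold change was -2.50 ± 0.48 (edgeR quasi-likelihood test, Benjamini-Hochberg adjusted p = 0.00387), and Angus replicate 3 was at about double the other Angus libraries. ANXA2, which assembles on membranes with an S100 partner, stood at 19207, 22986 and 23979 in Angus and 75813, 46432 and 60843 in Chinese Simmental. Its Angus libraries were close (coefficient of variation 11.4%), and Chinese Simmental replicate 1 was the highest. ANXA3, abundant in neutrophils, had 4373, 1884 and 3005 against 21104, 5514 and 18002, so that Chinese Simmental replicate 2 lay near the highest Angus library while the others of its breed were over 3 times as high. ANXA4 was 2.66-fold higher in Chinese Simmental at 1478, 719 and 935 against 2209, 2591 and 3527. ANXA5, the phosphatidylserine binder used to stain dying cells, was 2.19-fold higher at 9821, 7229 and 12428 against 23634, 14938 and 25849. Calls were lost for ANXA4 without Angus replicate 2 (-1.20) and for ANXA5 without Angus replicate 1 or 2 or Chinese Simmental replicate 3 (-1.13 to -0.95).

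The 5 actin-binding or actin-bundling proteins were higher in Chinese Simmental as well, apart from the turn of ACTN4 given below. GSN, gelsolin, which severs and caps actin filaments, stood at 14539, 13255 and 13430.4 scaled counts in Angus and 30768, 42257 and 55958 in Chinese Simmental, 3.13-fold higher. Its Angus libraries were nearly equal (coefficient of variation 5.07%) while those of Chinese Simmental spread from the lowest in replicate 1 to the highest in replicate 3. EFHD2, an actin-bundling EF-hand protein of leukocytes, had 12452, 6947 and 8390.2 against 21165, 22521 and 41256, with Chinese Simmental replicate 3 at nearly double the others. TPM4, a tropomyosin of nonmuscle cells, stood at 4317, 3101 and 2840.0 against 6882, 8349.7 and 13406. ACTN4, the nonmuscle alpha-actinin, was at 24019.8, 20678 and 20792 in Angus and 26066, 57674 and 57638 in Chinese Simmental, and turned with factors over the listed genes (0.29 with TMM). Its Chinese Simmental replicate 1 was close to the Angus libraries, and the other libraries of that breed were more than 2 times as high. AIF1, also called IBA1, a macrophage protein that binds actin, overlapped between breeds at 8783, 2549 and 3548 against 20204, 8189 and 11366, with Angus replicate 1 above Chinese Simmental replicate 2. Calls were lost for ACTN4 without Angus replicate 1, 2 or 3 or Chinese Simmental replicate 2 or 3 (-1.18 to -0.94) and for AIF1 without Angus replicate 2 or 3 or Chinese Simmental replicate 1 or 3 (-1.52 to -0.98). The log2 fold change moved for AIF1 from -1.42 to -2.12 without Angus replicate 1.

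The 7 EF-hand sensors and ion channel partners split 6 to 1. HPCAL1, of the neuronal calcium sensor family, stood at 1456, 939 and 1136 scaled counts in Angus and 2945, 1899 and 2961 in Chinese Simmental. TESC, tescalcin, a cofactor of a sodium-proton exchanger, overlapped between breeds at 937, 693 and 1332 against 1228, 2396 and 3417. So did GCA, grancalcin, an EF-hand protein abundant in neutrophils, at 191, 325 and 356 against 319.7, 873 and 928. EFHB, an EF-hand protein, stood at 231, 219.8 and 136 against 238, 654 and 564, with Chinese Simmental replicate 1 barely above the highest Angus library. These 4 genes turned with factors over the listed genes, at 0.09 (EFHB) to 0.18 (HPCAL1 and TESC) with TMM. NECAB2, an EF-hand protein known from neurons, had 136, 104 and 122 against 286, 299 and 738, but its counts were identical to those listed for OSGIN1, so that its reads could belong to either name. KCNIP2, a subunit of voltage-gated potassium channels, was the exception, higher in Angus at 164, 191 and 104 against 61.0, 58.7 and 34.0 with a log2 fold change of 1.58 ± 0.54. Calls were lost for HPCAL1 without Angus replicate 2 or 3 (-1.12 to -1.01), TESC without Angus replicate 1 or 2 or Chinese Simmental replicate 2 or 3 (-1.23 to -0.88), GCA without Angus replicate 1, 2 or 3 or Chinese Simmental replicate 2 or 3 (-1.46 to -1.04), EFHB without Angus replicate 2 or 3 or Chinese Simmental replicate 2 or 3 (-1.40 to -1.04) and KCNIP2 without Angus replicate 1 or 2 or Chinese Simmental replicate 3 (1.35 to 1.53). The log2 fold change moved for NECAB2 from -1.87 to -1.28 without Chinese Simmental replicate 3.

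The 3 EHD proteins, membrane-remodelling ATPases of endocytic recycling, did not share a direction, and their signs held under all scalings tried. With factors over the listed genes, which shift the whole table toward Angus, EHD1 and EHD4 were not called (-0.67 and -0.09 with TMM), while EHD3 was (2.50). EHD1 stood at 5298, 6574 and 8382 scaled counts in Angus and 12733, 30768 and 45624 in Chinese Simmental, and EHD4 at 145, 125 and 125 against 347, 244 and 505, 4.40-fold and 2.77-fold higher in Chinese Simmental. EHD3 was 2.33-fold higher in Angus, at 6305, 11865 and 8138 against 4702, 3828 and 2779.8, and its log2 fold change was 1.22 ± 0.39, beside -2.14 ± 0.50 for EHD1. For EHD1 the Chinese Simmental libraries spread widely, with replicate 3 more than 3 times replicate 1. The calls of EHD3 and EHD4 were lost, for EHD3 without Angus replicate 2 or Chinese Simmental replicate 3 (0.94 to 1.04) and for EHD4 without Angus replicate 2 or Chinese Simmental replicate 3 (-1.43 to -1.16).

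Genes of vesicle fusion and granule release were higher in Chinese Simmental, apart from the turns given below. SYT7, a synaptotagmin that drives slow vesicle and lysosome fusion, differed the most at 45.4, 68.7 and 20.7 scaled counts in Angus and 301, 1071 and 293 in Chinese Simmental, with a log2 fold change of -3.63 ± 0.72. Chinese Simmental replicate 2 was more than 3 times the other libraries of its breed, and the log2 fold change moved for SYT7 from -3.63 to -2.73 without Chinese Simmental replicate 2. SYT4, a synaptotagmin of dense-core vesicles, stood at 45.4, 40.0 and 21.7 against 135, 99.0 and 94.2, and MCTP2, a membrane protein with several C2 domains, at 769, 863 and 1302 against 2732, 6690.0 and 8538 with a log2 fold change of -2.61 ± 0.49. PRF1, perforin, which needs calcium to insert in the target membrane and is stored in cytotoxic granules, had 6339, 6737 and 7478 against 8324, 19664 and 20522. The Rab27 effectors SYTL2 and SYTL3 overlapped between breeds, SYTL2 at 2258, 1582 and 2617 against 2039.9, 5915 and 8065 and SYTL3 at 2625, 2847 and 5275 against 5259.6, 11729.5 and 7097. For PRF1 and SYTL2 Chinese Simmental replicate 1 was within or close to the Angus range, and PRF1, SYTL2 and SYTL3 turned with factors over the listed genes, at 0.14 (SYTL2) to 0.17 with TMM. TBC1D8, a TBC-domain protein of the Rab GTPase-activating type, stood at 6096, 3408 and 4004 against 16195, 7871 and 13887, and its paralog TBC1D8B at 83.0, 35.0 and 74.8 against 223, 147 and 118. Calls were also lost for SYT4 without Angus replicate 2 or 3 (-1.70 to -1.35), PRF1 without Angus replicate 1, 2 or 3 or Chinese Simmental replicate 2 or 3 (-1.31 to -1.03), SYTL2 without Angus replicate 1, 2 or 3 or Chinese Simmental replicate 2 or 3 (-1.48 to -0.89), SYTL3 without Angus replicate 1 or 2 or Chinese Simmental replicate 2 (-1.02 to -0.79) and TBC1D8B without Angus replicate 1, 2 or 3 or Chinese Simmental replicate 1, 2 or 3 (-1.56 to -1.04).

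Protein-modifying enzymes and their subunits held the largest differences among the 60 genes, those of CAPNS2 and TGM3. TGM3, a transglutaminase best known from the epidermis, stood at 1987, 5027 and 25676 scaled counts in Angus and 42668, 241876 and 153320.1 in Chinese Simmental, a 13.4-fold difference in the means. Both breeds spread widely: Angus replicate 3 was 12.9 times Angus replicate 1, and Chinese Simmental replicate 2 was 5.67 times replicate 1. The log2 fold change was -3.74 ± 0.99, and it moved for TGM3 from -3.74 to -5.38 without Angus replicate 3. PADI3, a peptidylarginine deiminase, had 71.0, 59.9 and 40.4 against 259.7, 409.6 and 1017 with a log2 fold change of -3.30 ± 0.62, and it moved for PADI3 from -3.30 to -2.55 without Chinese Simmental replicate 3. CAPNS2, a small calpain subunit, had 0, 0 and 2 reads in Angus and 14, 22 and 51 in Chinese Simmental (0, 0 and 1.97 against 14.7, 20.2 and 49.5 scaled counts), a depth-adjusted ratio of 42.3 with an exact 95% interval of 11.4 to 355 that covers counting error only. Its RefSeq gene lies inside that of LPCAT2, also among the 60 genes, so reads of either could be counted on the other. The log2 fold change moved for CAPNS2 from -5.16 to -4.57 without Angus replicate 1 and -7.83 without Angus replicate 3 and -4.47 without Chinese Simmental replicate 3. UBA7, the activating enzyme of the interferon-induced modifier ISG15, varied little within either breed, at 2458, 2224 and 2285 against 7575, 6754 and 7684, with coefficients of variation of 5.23% and 6.93% and a log2 fold change of -1.66 ± 0.33. Its deposited annotation also held homophilic cell adhesion and plasma membrane, as for CDH23, FAT1 and FAT4. UBA7 held none of the calcium-binding domain classes searched, so its place under the term is uncertain. USP32, a deubiquitinating enzyme with EF hands, stood at 1834, 1851 and 2426 against 3267, 9863 and 9873.

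The lipid enzymes were higher in Chinese Simmental, apart from the turn of PLCB3. LPCAT2, an acyltransferase of leukocytes that makes platelet-activating factor, stood at 746, 441 and 744 scaled counts in Angus and 2888, 6411 and 7191 in Chinese Simmental, 8.54-fold higher (log2 fold change -3.09 ± 0.47), and had the lowest adjusted p of the 60 genes (0.00248 in edgeR's quasi-likelihood test with Benjamini-Hochberg adjustment). PLA2G4A, the cytosolic phospholipase A2 that releases arachidonic acid, had 263, 215 and 231 against 858, 694 and 926, with coefficients of variation of 10.3% and 14.5%. The phospholipases C PLCB3 and PLCD1 stood at 1396, 1110.2 and 994 against 2998, 2228 and 2593, and at 523, 232 and 152 against 817, 741 and 1094. PLCB3 turned with factors over the listed genes (0.15 with TMM). Among these enzymes calls were lost for PLCB3 without Angus replicate 2 or 3 (-1.12 to -1.06) and PLCD1 without Angus replicate 2 or 3 or Chinese Simmental replicate 3 (-1.39 to -1.23), and the log2 fold change moved for PLCD1 from -1.55 to -2.20 without Angus replicate 1.

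The 4 matrix metalloproteinases split evenly by sign, under all scalings tried. Factors over the listed genes shift the whole table toward Angus. With them MMP25 and MMP19 were not called (-0.93 and -1.07 with TMM), while MMP28 and MMP11 were (3.37 and 2.85). MMP25, a membrane-anchored protease of neutrophils also called leukolysin, stood at 3226, 5681 and 7793 scaled counts in Angus and 17879.7, 27098 and 40346 in Chinese Simmental, 5.11-fold higher. MMP19 was 5.32-fold higher at 645, 119 and 291 against 1752, 1391 and 2471, and Angus replicate 1 was more than 2 times the other Angus libraries. MMP28, epilysin, was 4.18-fold higher in Angus at 2425, 1365 and 1333 against 411, 433 and 383, with the Chinese Simmental libraries nearly equal (coefficient of variation 6.14%). MMP11, stromelysin-3, was higher in Angus at 287, 302 and 123 against 68.3, 77.9 and 115, and its Angus replicate 3 lay just above the highest Chinese Simmental library. Log2 fold changes were -2.35 ± 0.48, -2.41 ± 0.61, 2.06 ± 0.41 and 1.45 ± 0.54 in that order. The call was lost for MMP11 without Angus replicate 1 or 2 or Chinese Simmental replicate 1 or 2 (1.24 to 1.37), and the log2 fold change moved for MMP19 from -2.41 to -3.19 without Angus replicate 1.

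Receptors and secreted proteins built from EGF-like modules included the gene with the largest difference toward Angus. DLK2, a membrane protein related to Notch ligands, stood at 650.5, 997 and 969 scaled counts in Angus and 249, 86.1 and 30.1 in Chinese Simmental, with a log2 fold change of 2.84 ± 0.71. The Angus libraries had a coefficient of variation of 22.1%, whereas Chinese Simmental replicate 1 was 8.28 times replicate 3, and the log2 fold change moved for DLK2 from 2.84 to 3.90 without Chinese Simmental replicate 1. NOTCH1, the receptor of the pathway, went the other way at 10834, 6812 and 10205 against 14934, 20000.4 and 25521, 2.17-fold higher in Chinese Simmental, and turned with factors over the listed genes (0.26 with TMM). THBD, thrombomodulin, the endothelial and monocyte receptor that turns thrombin toward protein C, had 328, 109.9 and 159 against 859, 1295 and 2288 with a log2 fold change of -2.89 ± 0.57. LRP1, a scavenging endocytic receptor, stood at 4955, 1457 and 1853 against 11267, 9499 and 17124. Angus replicate 1 was more than 2 times the other Angus libraries for LRP1 and THBD. THBS1, thrombospondin 1, had 429.6, 574 and 462 against 1250.2, 1103 and 4101, with Chinese Simmental replicate 3 more than 3 times the others. LRP4, the agrin receptor of the neuromuscular junction, stood at 659.9, 237 and 558 against 1123, 1983 and 1096, and HEG1, a membrane protein of endothelium, at 2184, 1587 and 1725 against 2505, 6094 and 3086. NELL2, a secreted glycoprotein, had 229, 127 and 325 against 387, 618 and 549.5, and CUBN, cubilin, an endocytic receptor of vitamin B12 uptake, 15.4, 62.4 and 65.0 against 84.1, 269 and 246. HEG1 and NELL2 turned with factors over the listed genes (0.24 and 0.15 with TMM). A call was lost for NOTCH1 without Angus replicate 2 or 3 or Chinese Simmental replicate 3 (-1.19 to -0.91), LRP4 without Angus replicate 2 or Chinese Simmental replicate 2 (-1.20 to -1.19), HEG1 without Angus replicate 2 or 3 or Chinese Simmental replicate 2 (-1.05 to -0.61), NELL2 without Angus replicate 1 or 2 or Chinese Simmental replicate 2 or 3 (-1.19 to -0.90) and CUBN without Chinese Simmental replicate 2 or 3 (-1.90 to -1.79). The log2 fold changes moved for LRP1 from -2.20 to -2.93 without Angus replicate 1 and for THBS1 from -2.14 to -1.27 without Chinese Simmental replicate 3.

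All 3 cadherin-repeat genes were higher in Chinese Simmental, and FAT4 turned with factors over the listed genes (0.03 with TMM). CDH23, a tip-link cadherin of hair cells, stood at 3174, 3088 and 4431 scaled counts in Angus and 5165, 12150.2 and 12732 in Chinese Simmental. Its RefSeq gene overlaps that of VSIR, also listed, so its level is uncertain. Of the giant protocadherins, FAT1 stood at 40.2, 12.5 and 4.92 against 144, 95.3 and 156, and FAT4 at 112, 106 and 115 against 151, 358 and 354. FAT4 was the most even of the 60 genes in Angus (coefficient of variation 4.13%). The call was lost for FAT4 without Angus replicate 1, 2 or 3 or Chinese Simmental replicate 2 or 3 (-1.40 to -1.19), and the log2 fold change moved for FAT1 from -2.76 to -3.92 without Angus replicate 1.

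The 3 proteins of the endoplasmic reticulum differed in direction. SELENON, a selenoprotein whose loss causes muscle disease in humans, stood at 662, 356 and 447 scaled counts in Angus and 2898, 1649.6 and 3299 in Chinese Simmental, 5.36-fold higher (log2 fold change -2.42 ± 0.44). FKBP14, a prolyl isomerase of collagen folding, was 2.30-fold higher at 353, 637 and 433 against 891, 1147 and 1239 and turned with factors over the listed genes (0.17 with TMM). CLGN, calmegin, a chaperone related to calnexin and best known from the testis, was 4.95-fold higher in Angus at 847, 1145 and 512 against 192, 120.1 and 193, with a log2 fold change of 2.31 ± 0.48. The call was lost for FKBP14 without Angus replicate 1 or 3 (-1.14 to -1.03).

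Libraries of a breed differed from each other in ways that recurred over these genes. In Chinese Simmental, replicate 3 was the highest library for 37 of the 60 genes and replicate 1 the lowest for 30, and over all listed genes the shares were 53.4% and 52.1%. Replicate 1 was more than 2-fold below the mean of replicates 2 and 3 for 19 of the 60 genes (31.7%), against 30.4% of listed genes. The strongest such values were log2 ratios of -2.21 for TGM3, -1.78 for SYTL2, -1.61 for CUBN and -1.59 for USP32. DLK2, S100A2 and AIF1 went the other way, at 2.09, 1.37 and 1.05. In Angus, replicate 1 was more than double the mean of the others for 6 genes (10%, against 12.0% of listed genes), namely FAT1 (2.15), MMP19 (1.65), LRP1 (1.58), AIF1 (1.53), PLCD1 (1.44) and THBD (1.28). It was more than 2-fold below that mean for 4 (6.67%, against 10.5% of listed genes), namely TGM3 (-2.95), CUBN (-2.01), CAPNS2 (-1.57) and MMP25 (-1.06). The median coefficient of variation over the 60 genes was 30.5% in Angus and 36.0% in Chinese Simmental, and over all listed genes 30.1% and 39.4%. Leaving out 1 library in turn gave between 31 and 50 genes called higher in Chinese Simmental and between 3 and 6 in Angus. Both counts were lowest without Angus replicate 2. Over all listed genes that fit called 1059 higher in Chinese Simmental in place of 1492, and 291 higher in Angus in place of 495. Of the 60 genes, 31 kept their call without any one library, and the matching share of listed genes was not computed.

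**Figure D4:**
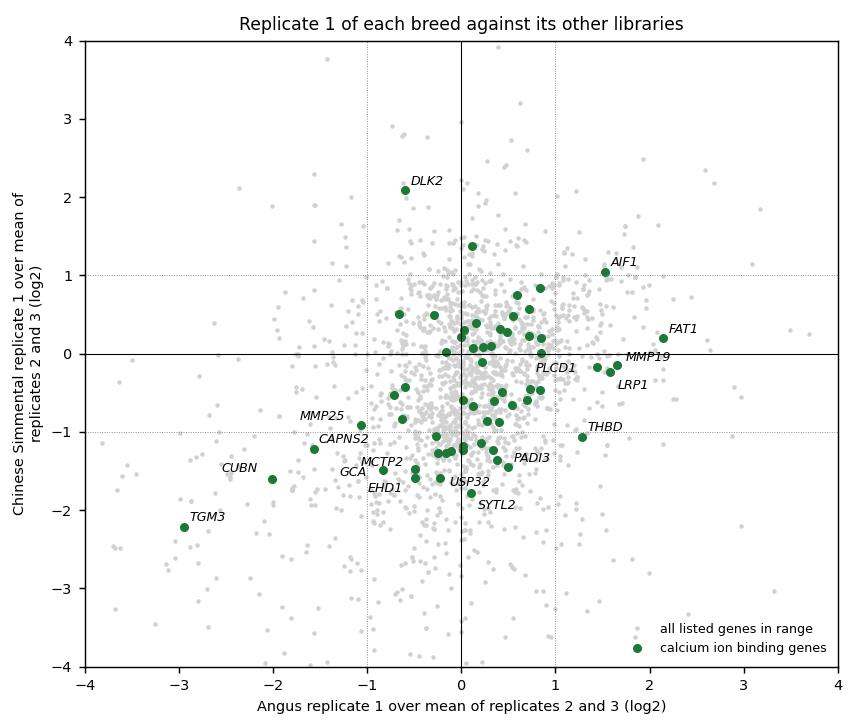
Log2 ratio of replicate 1 to the mean of replicates 2 and 3 of the same breed (0.5 added to scaled counts), in Angus on the horizontal and in Chinese Simmental on the vertical axis, for 59 of the 60 genes in green and all listed genes in grey; dotted lines mark a factor of 2 and grey points beyond the axes are not drawn. TGM3 and CUBN are low in replicate 1 of both breeds, and DLK2 is high in Chinese Simmental replicate 1.

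The shared annotation term covered unlike proteins. By the deposited Pfam matches, 21 of the 60 genes held an EF hand or S100 domain, 11 an EGF-like domain, 9 a C2 domain, 5 annexin repeats, 4 a matrixin domain and 3 cadherin repeats, and PLCD1, FAT1 and FAT4 held more than 1 of these. AIF1, PADI3, SELENON, TBC1D8, TBC1D8B, TGM3, TPM4 and UBA7 held none of the domain classes searched. Beyond the term itself, 22 genes (36.7%) were annotated to the extracellular exosome, against 15.3% of the listed genes. The plasma membrane held 14 (23.3%), UBA7 among them, against 11.1%, and focal adhesions 8 (13.3%), against 2.79%. Other shares stood closer, such as nucleus at 18.3% against 13.7% and cytoplasm at 16.7% against 12.7%. By the rule each of the 60 genes holds an annotation, while the listed genes include provisional and assembled names, so these shares are not on an equal footing. In RefSeq order, S100A2, S100A4 and S100A7 lie within 4 protein-coding genes of each other, and PRF1 lies 7 genes from CDH23. Of the 60 genes, 8 overlap another protein-coding RefSeq gene, among them THBS1 with the listed FSIP1 and AIF1 with the unlisted NCR3, and the strand setting of the counting is not given in the sources used here.

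Other genes of calcium handling were listed in small numbers and did not share a single direction. Of 18 calcium pumps and exchangers 3 were listed, all called higher in Chinese Simmental. Among them, SLC8A1, a sodium-calcium exchanger of the plasma membrane, stood at 104, 37.5 and 128 scaled counts in Angus and 937, 1646 and 1595 in Chinese Simmental, with a log2 fold change of -3.95 ± 0.57. Of 34 entry and release channels 6 were listed, 4 called higher in Chinese Simmental and 2 in Angus. MCU, the pore of the mitochondrial calcium uniporter, was at 1114, 1424 and 1669.6 against 2244, 3096 and 4133, at -1.17 ± 0.38, and turned with factors over the listed genes. ITPR3, an inositol trisphosphate receptor, was higher in Angus at 11244, 11567 and 9849 against 5864, 5369 and 3776. CACNA1S, the voltage sensor of skeletal muscle, was also higher in Angus, at 1658, 2473 and 1214 against 843, 792 and 200.0, and RYR1, the release channel it controls, was higher in Chinese Simmental, at 380.0, 114 and 296 against 1433, 4305 and 1961. Of 23 calmodulin and calcineurin genes 4 were listed. CAMK2D, a calmodulin-dependent kinase, and PPP3CC, a calcineurin subunit, were called higher in Angus, and CAMKK1, another kinase, in Chinese Simmental, while NFATC4 had no read in Chinese Simmental and did not pass the filter. Of 12 genes of the sarcoplasmic reticulum store only ASPH was listed, at 263, 554 and 262 against 925, 570.0 and 1109, called higher in Chinese Simmental and turned with factors over the listed genes.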

How the data were processed

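Total RNA was sequenced from 3 Angus and 3 Chinese Simmental samples labelled longissimus dorsi, grouped by the breed in their titles. HISAT2 and genome build ARS-UCD1.2 are named in the submitters' processing notes, while no source used here gives the counter, the strand setting or the annotation. Per the file headers, the deposited table held counts and FPKM per library, a mean scaled signal for each breed, and the results of the authors' test (p-value, its adjusted form and a log2 fold change). It held 2040 genes and 1 blank row, which was left out, and 0 per-sample columns were left unused. Size factors were solved from the deposited group means (largest relative residual 1.88e-09) and ranged from 0.801 to 1.17.

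Counts were tested with edgeR 4.0.16 in R 4.3.3 (filterByExpr with a minimum count of 10, quasi-likelihood test, breed as the only term, Benjamini-Hochberg adjustment over 1989 genes, threshold 0.05). Standard errors are the log2 fold change divided by the square root of F. DESeq2 1.42.0, limma 3.58.1 on log2(FPKM + 1) and other scalings were alternatives. On simulated data for this comparison with 1989 genes, 0.0559% of genes without a change were called, 0% of those changed by 1 on the log2 scale and 46% of those changed by 2. The simulation changed only 200 genes, equally in both directions. The listed genes were all selected for a difference and 99.9% of those tested were called, so these shares do not carry over to them. Deviations from the breed means correlated at 0.267, 0.151 and 0.241 across genes for replicates 1, 2 and 3 of the breeds. Between unlike numbers the correlations ran from -0.350 to 0.222. The 0.222, for Angus replicate 3 with Chinese Simmental replicate 2, exceeded the 0.151 of the replicates numbered 2. Equal numbers were treated as pairs in an alternative fit. The numbers come from the sample titles, which do not say that equal numbers are pairs, and these correlations (2016 genes) do not settle it.

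The members and lists were chosen with earlier results of these data known. The naming rule took the 10 largest differences per direction among genes past the threshold with breeds that did not overlap and a mean FPKM of at least 1, the 8 highest FPKM, 3 genes per role group by scaled count, and genes with overlapping breeds or shared counts. It named 41 genes, and the other 19 are given too. All counts cover the 60 genes, of which 1 is not reported here by itself, nor is 1 gene of a marker list. A gene outside the role patterns was placed by its known role. All 60 symbols matched RefSeq of assembly ARS-UCD2.0, used for names and neighbours only. Scaling by totals implied by FPKM was added after seeing the data.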

Additional observations from a re-analysis of the deposited data

How the results depend on the processing

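With TMM and RLE factors, 7 and 7 of the 60 genes were called higher in Chinese Simmental in place of 54, and 256 and 263 listed genes in place of 1492. The listed genes are mostly higher in 1 breed, and such factors centre them by construction. A further 31 kept the direction without a call, and log2 fold changes changed sign for 16 genes, among them to 0.20 and 0.17 (ANXA5, TMM then RLE), 0.24 and 0.24 (HEG1), 0.15 and 0.13 (NELL2), 0.26 and 0.24 (NOTCH1), 0.030 and 0.044 (FAT4), 0.15 and 0.12 (PLCB3), 0.17 and 0.20 (FKBP14), 0.17 and 0.19 (PRF1), 0.14 and 0.15 (SYTL2), 0.17 and 0.17 (SYTL3), 0.29 and 0.30 (ACTN4), 0.092 and 0.12 (EFHB), 0.15 and 0.18 (GCA), 0.18 and 0.14 (HPCAL1) and 0.18 and 0.18 (TESC). In what follows the count higher in Angus comes first. DESeq2 called 6 and 54 of the 60 genes, beside 509 and 1531 listed genes. Without the count filter these were 6 and 54, beside 507 and 1531. Scaling by totals implied by FPKM gave 6 and 53, beside 481 and 1481. With limma on log2(FPKM + 1) or log2(FPKM + 0.1), 6 and 51 were called with each, beside 444 and 1285 or 464 and 1355. With the replicate block, 6 and 54 genes were called, beside 473 and 1464 listed genes, and no call among the 60 changed. Leaving out 1 library gave 3 to 6 genes higher in Angus and 31 to 50 higher in Chinese Simmental, and over all listed genes these counts were 291 to 466 and 1059 to 1423. Fewer samples enter these fits. Calls of genes with few reads, such as CAPNS2, are limited by depth, and no setting reversed a gene beside TMM and RLE.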

Other observations

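Deposited FPKM of the 60 genes mostly followed their counts across libraries but not between genes. CUBN departed the most, with a standard deviation between libraries of 0.878 for the log2 ratio of count to FPKM. The direction was the same by FPKM and by count for all 60 genes. The breeds did not overlap in FPKM for 57 of them, but the share of all listed genes was not computed in this unit. By scaled count it was 55 of the 60, beside 90.3% of listed genes. The ratio of count to FPKM, brought to a common library total, depends in part on the transcript length that was used. It ran from 1.19 for EHD1 and 3.66 for EHD3 through 4.78 for S100A4 to 438 for S100A7 and 537 for TESC, a 451-fold range, and its median over 1487 listed genes (minimum of 50 counts per library) was 112. S100A4 and S100A7 encode proteins of similar, small size. By FPKM the highest genes were EHD1, at 5689 ± 982 FPKM in Angus and 23693 ± 10589 in Chinese Simmental, TGM3, at 1309 ± 1412 FPKM in Angus and 16588 ± 10749.6 in Chinese Simmental, and S100A4, at 2111 ± 627 FPKM in Angus and 6472 ± 1079 in Chinese Simmental, whereas by mean scaled count ANXA1, ANXA2 and ACTN4 each stood above EHD1. EHD3, ACTN4, NOTCH1 and ANXA5 followed in this order by FPKM. Which transcripts the deposited lengths refer to was not tested, so no order of levels between genes is drawn from either unit.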
